A study of Mus musculus with 8 samples.

Results

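The genes of the muscle thin filament and its regulators were compared in whole oviducts of adult control and genistein (Gen)-treated mice. Gen is a phytoestrogen of soy. Members were taken by gene name: array names that start with Myl, Tnn, Tpm, Cnn, Lmod or Pdlim followed by a number or letter, without Tnni3k, and 14 single genes (Acta1, Acta2, Actc1, Actg2, Tagln, Des, Smtn, Mylk, Cald1, Synpo2, Myocd, Srf, Tcap and Ttn). This rule found 56 of the 27962 gene names and 104 of the 41174 noncontrol probes. Of these, 15 genes encode proteins typical of smooth muscle, not all of them limited to it. Another 22 encode isoforms of striated (cardiac or skeletal) muscle, 11 encode widely expressed isoforms, and 2, Srf and Myocd, encode transcription regulators. The other 6 (Mylip, Tpmt, Cnnm1, Cnnm2, Cnnm3 and Cnnm4) match the name rule but do not belong to the families. They were put in none of these groups, but counts over all members include them.

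All samples came from CD-1 female mice that received subcutaneous injections as pups on PND1–PND5, of corn oil in 4 (control) and of Gen at 50 mg/kg/day in 4. As adults of 6–8 weeks they were superovulated and mated. Both groups were sampled on GD2, 48 hr after human chorionic gonadotropin (hCG), and embryos were taken out of the tissue. Each sample was hybridized to its own 1-color Agilent array. The values below are processed signals, linear intensities that were scaled so that each array had the same 75th percentile of log2 signal, and a fold change is Gen over control on the log2 scale. Control samples shared 1 slide and Gen samples a second, and an effect of the slide cannot be told apart from that of treatment.

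In the oviduct, layers of smooth muscle around the epithelium move oocytes and embryos. The thin filament is a polymer of actin wound with tropomyosin. In striated muscle, calcium acts on it through troponin, a complex of a calcium-binding subunit (C), an inhibitory subunit (I) and a tropomyosin-binding subunit (T). Smooth muscle contraction does not depend on troponin and is switched on at the thick filament, where myosin light chain kinase (Mylk), activated by calcium and calmodulin, phosphorylates the regulatory light chain (Myl9). Calponin (Cnn1) and caldesmon (Cald1) are actin-binding proteins of smooth muscle. Many of these genes are known targets of serum response factor (Srf) and its coactivator myocardin (Myocd), which act at a DNA element called the CArG box.

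The CArG box has CC, then 6 letters that are A or T, then GG, and reads the same way on both strands. RefSeq promoter windows on GRCm38.p6, from 250 bases before to 50 bases after the transcript start, were available for 47 of the 56 members. An exact box was in at least 1 window of 8 of these 47 genes (17.0%) and of 488 of the 27025 genes with a window (1.81%). With up to 1 G or C allowed among the 6 inner letters, 14 members (29.8%) and 11.3% of all genes had a match. Both counts describe letters in a window, not binding. The genes with an exact box were Actc1, Acta1, Myl3 and Myl7 of the striated isoforms, Myl9 of the smooth muscle proteins, Cnn2 and Myl6 of the widely expressed isoforms, and Srf itself. The stretches printed here hold the kind of site at which Srf is known to act, and which ones to print was chosen after the values were seen. For Acta2, smooth muscle alpha-actin, the matches have 1 inner letter off. Each is written 5′ to 3′ on the strand of its gene, with the boxes in capitals.
Actc1 (chr2:114052888-114052947, minus strand): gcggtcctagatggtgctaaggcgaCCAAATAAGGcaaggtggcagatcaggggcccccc
Acta1 (chr8:123894814-123894873, minus strand): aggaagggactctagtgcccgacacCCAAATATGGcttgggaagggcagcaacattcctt
Acta2 (chr19:34255374-34255482, minus strand): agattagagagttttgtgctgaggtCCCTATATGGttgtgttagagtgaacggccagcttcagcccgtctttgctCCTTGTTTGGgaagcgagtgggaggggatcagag
Myl9 (chr2:156775278-156775337, plus strand): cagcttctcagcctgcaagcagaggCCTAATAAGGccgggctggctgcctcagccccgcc
Cnn2 (chr10:79988519-79988578, plus strand): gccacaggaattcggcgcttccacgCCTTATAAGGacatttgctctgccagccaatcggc
Myl6 (chr10:128493025-128493084, minus strand): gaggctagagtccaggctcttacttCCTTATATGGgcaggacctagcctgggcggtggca
Myl3 (chr9:110763568-110763627, plus strand): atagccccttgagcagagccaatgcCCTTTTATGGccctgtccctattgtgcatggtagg
Myl7 (chr11:5898809-5898868, minus strand): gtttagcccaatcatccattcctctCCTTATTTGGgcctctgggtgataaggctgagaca
Srf (chr17:46556190-46556269, minus strand): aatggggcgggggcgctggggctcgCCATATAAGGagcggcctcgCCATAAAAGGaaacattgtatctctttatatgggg

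**Figure D1:**
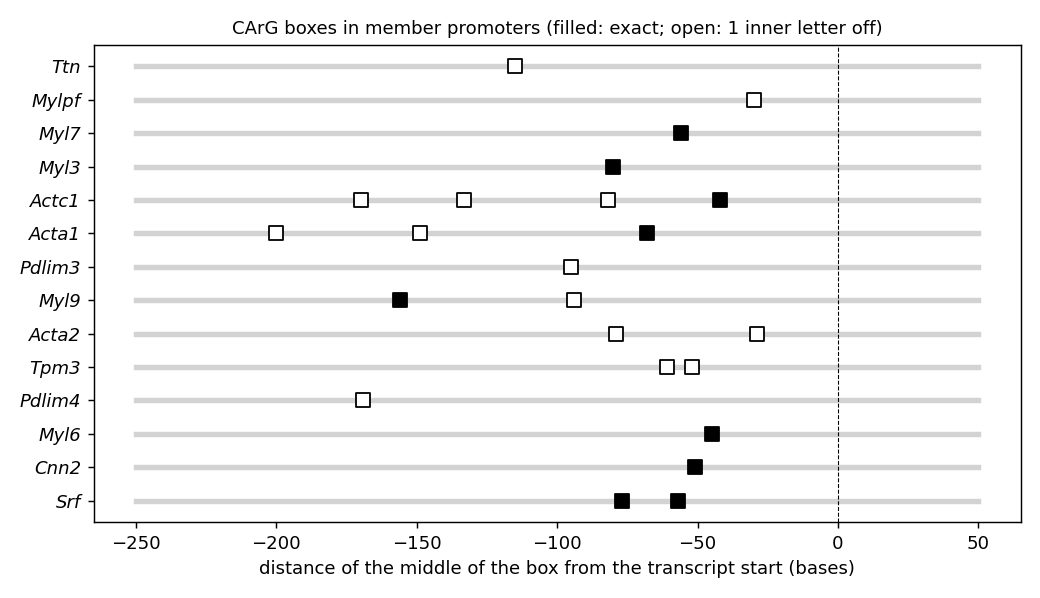
Position of CArG boxes in the promoter windows of the 14 members with a match. The x axis is the distance in bases of the middle of the box from the transcript start (dashed line), gray bars are the 300-base windows, filled squares are exact boxes, and open squares have 1 inner letter off. Srf has 2 exact boxes, Actc1 has 1 exact box and 3 others, and the matches of Tpm3 lie in windows of different transcript starts.

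The boxes all lay upstream of the start, most within the nearest 100 bases. Among the measured members with a window, the 8 with an exact box had a median log2 fold change of -0.21 and none passed the test, and the 36 without one had a median of -0.10 and 3 passed. No measured member that passed the test and had a window (Pdlim1, Tnnt1 and Tnnt2) held an exact box. Windows of Actg2, Lmod3, Mylk2, Myocd, Pdlim2, Tagln, Tcap, Tnni2 and Tnnt3 were not used here.

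A gene was counted as measured when all 4 arrays of the control group, of the Gen group or of both had a signal well above background, which held for 53 of the 56 members. The arrays had 25359–28934 probes well above background in controls and 29527–31481 in Gen-treated mice. No member was saturated. Lmod2, a leiomodin of heart and skeletal muscle, was not well above background on any array. Myl2, the ventricular regulatory light chain, was well above background on 2 Gen arrays only, and Mylc2pl, a light chain named Myl10 in current tables, on 1 control array only. The smooth muscle markers Acta2, Actg2 and Des were well above background on all 8 arrays, as were all 15 genes of the smooth muscle list.

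In Gen-treated mice 4 of the 53 measured members fell, and none rose. They were the slow skeletal troponin T gene Tnnt1, the cardiac troponin T gene Tnnt2, the fast skeletal troponin I gene Tnni2, and Pdlim1, whose protein has a PDZ and a LIM domain and binds alpha-actinin. Each fell by 45.5–48.9%. None of the 15 smooth muscle genes passed the test, although 14 of them had lower means in Gen-treated mice. By limma with Benjamini-Hochberg adjustment over all probes, 4 of 53 is 7.55%, against 2.18% of all 19415 measured gene names called lower and 3.18% called higher. Over all 27961 gene names tested, dim ones included, the percentages were 14.9% lower and 2.37% higher, and Lmod2, with no array well above background, was the fifth member called lower among the 56. At an unadjusted p under 0.05, 14 measured members (26.4%) were lower and 3 (5.66%) higher, against 7.07% and 9.96% of all measured gene names. The Lmod2 signals were 7–15 for controls and 3–5 for Gen-treated mice, and no fold is given. Probes with no array well above background had a median log2 fold change of -1.16, and 5015 of these 7909 probes were called. With dim probes left out of the test, Tnnt1 and Pdlim1 passed and Tnni2 and Tnnt2 did not. Whole oviducts were measured, so fewer cells of a type and less RNA per cell cannot be told apart.

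**Figure D2:**
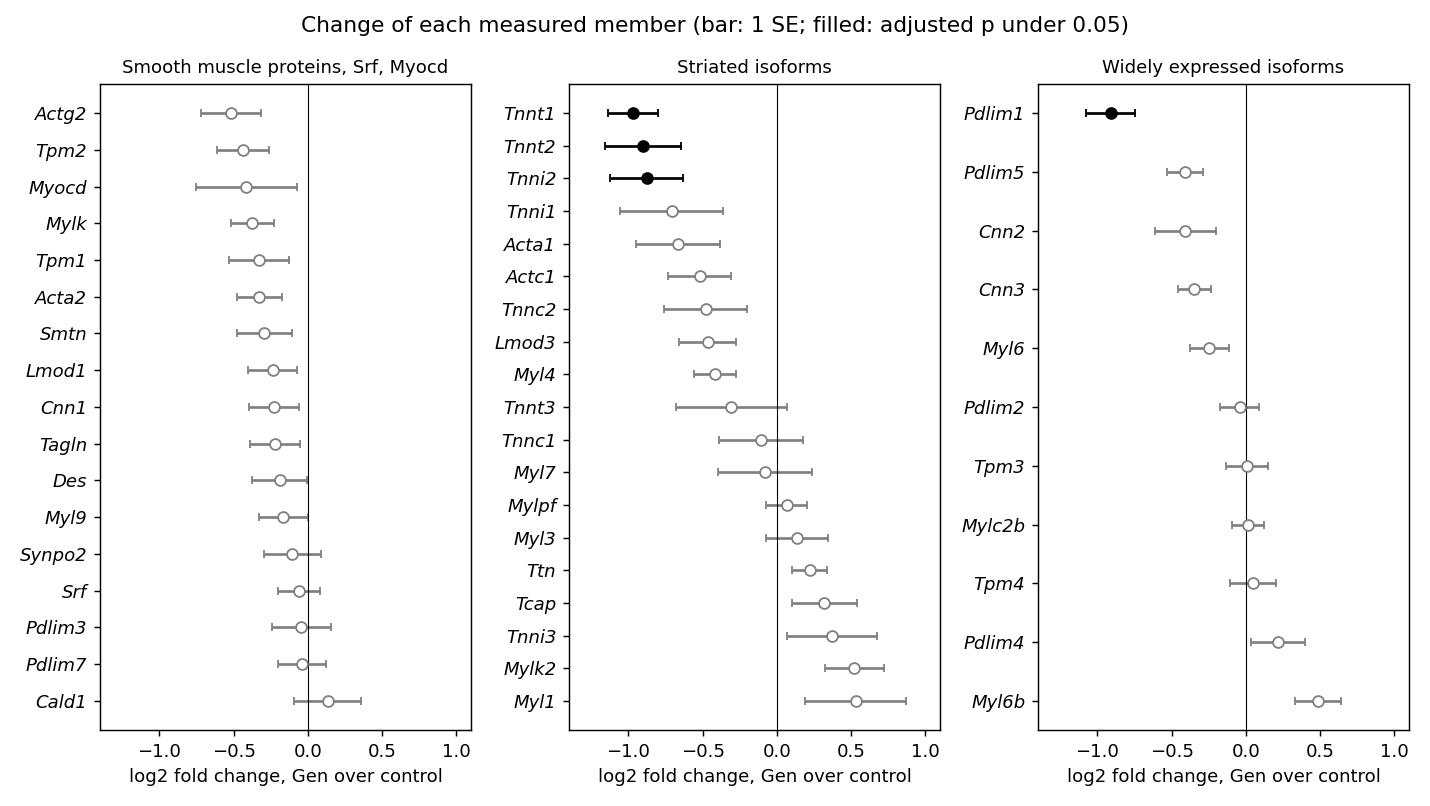
Log2 fold change, Gen over control (x axis), of the measured smooth muscle, striated and widely expressed members and of Srf and Myocd (y axis). Points are limma estimates from 4 arrays per group, bars are 1 SE, and filled points have an adjusted p under 0.05. Only Tnnt1, Tnnt2, Tnni2 and Pdlim1 are filled, and all but 1 of the smooth muscle proteins lie left of 0.

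Among the troponins, the 4 controls had Tnnt1 signals of 4083, 5378, 5708 and 6715, and the Gen-treated mice 2930, 2392, 2687 and 3050. Every control lay above every Gen-treated mouse. The estimated log2 change was -0.97 (SE 0.17, adjusted p = 0.0236 by limma), at a probe at chr7:4071141-4071200 (mm7, the build of the array design). Tnnt2 had 19413, 38846, 36139 and 29130 in controls against 14570, 18784, 19629 and 12174. Here the groups overlapped slightly, because control replicate 1 lay below Gen replicate 3. Its log2 fold change was -0.90 (SE 0.26, adjusted p = 0.0479) at chr1:135737607-135737919, and a second Tnnt2 probe was not above background on any array. Tnni2 had 5234, 4697, 5219 and 4351 in controls and 1656, 3074, 2530 and 3832 in Gen-treated mice, with no overlap. Its log2 fold change was -0.87 (SE 0.25, adjusted p = 0.0461) at chr7:138871616-138871675.

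The genes of troponin T and troponin I lie in neighboring pairs in the mouse genome, so each pair can be set side by side. Tnnt1 and the cardiac troponin I gene Tnni3 have probes 6.7 kb apart on chromosome 7. Tnni3 signals were 1489–2816 for controls and 1604–3761 for Gen-treated mice, with a log2 fold change of 0.37 (SE 0.30, adjusted p = 0.475). The estimate for Tnni3 was thus above 0 next to a gene that fell. Tnnt2 and the slow skeletal gene Tnni1 are 42.7 kb apart on chromosome 1, and Tnni1, at 144–433 in controls and 110–216 in Gen-treated mice, had a change of -0.71 (SE 0.35, adjusted p = 0.23). Tnni2 and the fast skeletal gene Tnnt3 are 68.0 kb apart on chromosome 7, and Tnnt3, with 303–402 in controls and 206–698 in Gen-treated mice, had a change of -0.31 (SE 0.38, adjusted p = 0.648). At the main probes, 1 gene of each pair passed the test and the other did not, and the differences within pairs were not tested. A second Tnni1 probe gave -0.83 (adjusted p = 0.0711 by limma), without overlap between the groups. Second probes gave -0.56 for Tnnt3 (adjusted p = 0.461) and 0.48 for Tnni3 (adjusted p = 0.288). Of the calcium-binding subunits, Tnnc2 of fast skeletal muscle had a log2 fold change of -0.48 (adjusted p = 0.317) and Tnnc1 of heart and slow muscle -0.11 (adjusted p = 0.846).

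Pdlim1 signals were 89393, 117969, 105733 and 103107 for controls and 63751, 41884, 60187 and 57326 for Gen-treated mice. The lowest control was well above the highest Gen-treated mouse. The log2 fold change was -0.91 (SE 0.16, adjusted p = 0.0236), measured by a single probe at chr19:40116218-40116277. Of its relatives, Pdlim5 had 1689–2137 in controls and 1319–1534 in Gen-treated mice, again without overlap, with a change of -0.41 (SE 0.12, adjusted p = 0.0587). All 5 Pdlim5 probes were measured and had changes between -0.58 and -0.23. Pdlim3, the actinin-associated LIM protein of muscle, had 61395, 66684, 69475 and 51925 in controls and 65447, 68952, 41263 and 70143 in Gen-treated mice, a change of -0.04. Its second probe gave 0.19. Pdlim4 had 33416, 43057, 43332 and 41687 against 48723, 50747, 34059 and 56420, a change of 0.22 (SE 0.18, adjusted p = 0.484). Pdlim2 and Pdlim7 each had changes of -0.04 at their main probes. Within the Pdlim family, then, estimates ran from -0.91 to 0.22 and 1 of 6 genes passed.

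**Figure D3:**
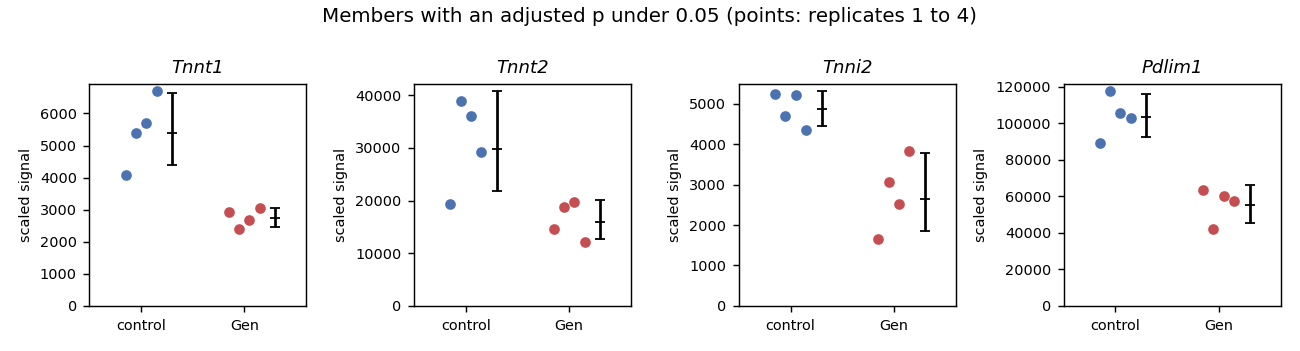
Scaled signal (y axis, linear from 0) of Tnnt1, Tnnt2, Tnni2 and Pdlim1 in 4 control and 4 Gen-treated mice (x axis, points in the order of replicates 1 to 4). Black bars are the mean of log2 signals ± 1 SD, drawn back on the linear scale. The groups are separate for Tnnt1, Tnni2 and Pdlim1, and for Tnnt2 the lowest control (19413) is just under the highest Gen-treated mouse (19629).

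The 4 calls were close to the threshold and did not hold under every analysis. Tnnt1 and Pdlim1 each passed in 5 of 10 other settings, Tnni2 in 3 and Tnnt2 in 2. Leaving out dim probes or raising dim signals to a floor kept the same estimates, but the limma adjusted p values rose. With dim probes left out they were 0.0411 for Tnnt1, 0.0413 for Pdlim1, 0.111 for Tnni2 and 0.113 for Tnnt2. With the floor they were 0.103, 0.103, 0.244 and 0.250. With Gen replicate 1 left out, the adjusted p was 0.0633 for Tnnt1, 0.0633 for Pdlim1, 0.0635 for Tnni2 and 0.108 for Tnnt2. With Gen replicate 2 left out these were 0.0675, 0.0675, 0.0723 and 0.0727, and with Gen replicate 3 left out 0.0603, 0.0603, 0.105 and 0.0645. With control replicate 1 left out only Tnnt1 passed (adjusted p = 0.0496), and the others had 0.0591 (Pdlim1), 0.0992 (Tnni2) and 0.0591 (Tnnt2). Without control replicate 2, 3 or 4 Tnnt1 and Pdlim1 passed and Tnni2 and Tnnt2 did not, with adjusted p values for these of 0.0633–0.105 and 0.0805–0.121. Without Gen replicate 4 Tnnt2 alone missed the threshold (adjusted p = 0.112). The estimates moved less than the calls: over all settings Tnnt1 lay between -1.10 and -0.73, Pdlim1 between -0.98 and -0.67, Tnni2 between -1.05 and -0.63 and Tnnt2 between -1.11 and -0.66.

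The actins are the core of the filament. Vertebrates have separate genes for the alpha-actins of vascular-type smooth muscle (Acta2), heart (Actc1) and skeletal muscle (Acta1) and for the gamma-actin of enteric-type smooth muscle (Actg2). Acta2 signals were 324182, 439329, 443802 and 375258 for controls and 306418, 366628, 272521 and 314058 for Gen-treated mice. Controls were higher as a group, but control replicate 1 lay below Gen replicate 2. The log2 fold change was -0.33 (SE 0.15, adjusted p = 0.201) at chr19:33942803-33942862. Actg2 had 55968, 87280, 85950 and 66389 in controls and 49820, 67538, 45982 and 42968 in Gen-treated mice, a change of -0.52 (SE 0.20, adjusted p = 0.138). Actc1 had 52416, 88617, 81989 and 68589 against 47464, 65808, 48693 and 40747, a change of -0.52 (SE 0.21, adjusted p = 0.151). Acta1 had 7602, 17312, 17043 and 12199 against 9080, 10055, 7067 and 6761, a change of -0.66 (SE 0.28, adjusted p = 0.17). For all 4 actins the groups overlapped, control replicate 1 was the lowest control, and Gen replicate 2 was the highest Gen-treated mouse.

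Actg2 and Actc1 ranked the 4 controls in the same order and had nearly the same change. How far the probe of each actin gene also binds the RNA of the other actins was not tested. The second brightest Acta2 probe had a log2 fold change of -0.46 (adjusted p = 0.0945), close to the main Acta2 probe. The other Acta2 probes did not follow it: 1 was at 0.07 with its highest signals on control replicate 1 and Gen replicate 4, 1 was at 0.01, and 1, well above background on all Gen arrays but on only 1 control array, was at 0.51. Over all members, 24 genes had more than 1 measured probe, and in 17 of them all measured probes lay on the same side of 0.

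**Figure D4:**
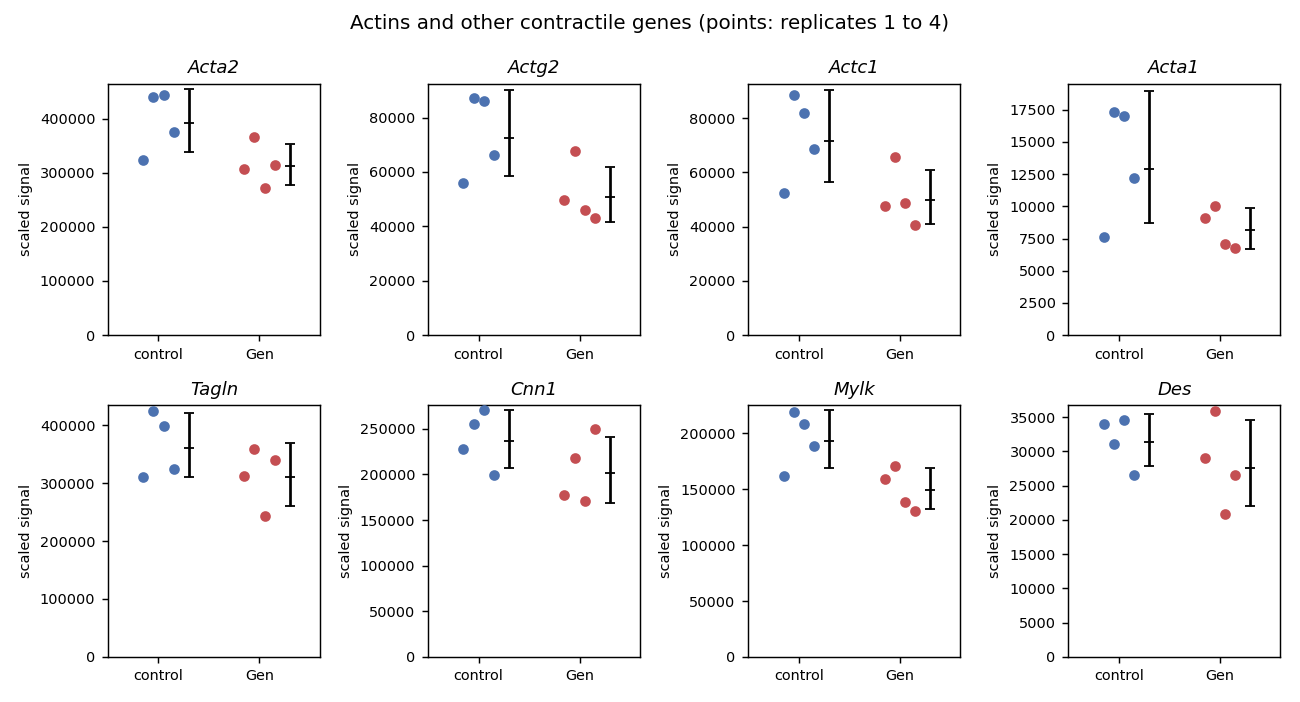
Scaled signal (y axis, linear from 0) of 8 contractile genes in 4 control and 4 Gen-treated mice (x axis, points in the order of replicates 1 to 4). Black bars are the mean of log2 signals ± 1 SD, drawn back on the linear scale. In every panel the groups overlap, and in the 4 actins, Tagln and Mylk control replicate 1 is the lowest control.

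The other smooth muscle genes gave the same picture of small estimates below 0. Tropomyosin 2 (Tpm2) had 158563, 243435, 238579 and 201474 in controls and 155228, 184400, 145604 and 133424 in Gen-treated mice, a change of -0.43 (SE 0.17, adjusted p = 0.147). Mylk had 162220, 218958, 208121 and 189058 against 159309, 171053, 138967 and 130810, a change of -0.37 (SE 0.14, adjusted p = 0.13), and a second bright probe gave -0.34. In both genes only control replicate 1 lay within the range of the Gen-treated mice. Tpm1 had 86646, 133780, 130027 and 106202 against 84149, 120774, 86110 and 74061, a change of -0.33 (SE 0.20, adjusted p = 0.344). Tagln (transgelin, an actin-binding marker of smooth muscle) had 309834, 425047, 398563 and 324470 against 312938, 358598, 242805 and 339339, a change of -0.22 (adjusted p = 0.451). Cnn1 had 228015, 254910, 270374 and 199090 against 177995, 218207, 171093 and 250295, a change of -0.23 (adjusted p = 0.422). The groups overlapped widely for both.

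Lmod1, the smooth muscle leiomodin, which nucleates actin filaments, had 25608, 37909, 34494 and 30495 in controls and 22864, 32545, 26346 and 27067 in Gen-treated mice, a change of -0.24 (adjusted p = 0.404). Des, the intermediate filament protein desmin, had 34078, 31143, 34624 and 26536 against 28985, 35969, 20868 and 26504, a change of -0.19 (SE 0.18, adjusted p = 0.551). The highest Des signal of all 8 arrays was in a Gen-treated mouse. Myl9 had 429640, 479505, 478168 and 401607 against 420283, 412455, 300440 and 481575, a change of -0.16 (adjusted p = 0.562). Smtn, Synpo2 and Pdlim7 had changes of -0.29, -0.10 and -0.04, and Cald1, the one smooth muscle gene with an estimate above 0, had 0.13 at its main probe and -0.18 at the other. Over all their probes, changes lay between -0.39 and -0.01 for Synpo2 and between -0.28 and -0.01 for Pdlim7. Of the regulators, Srf had 18675, 23023, 23227 and 22526 against 20154, 25375, 20354 and 18240, a change of -0.06 (adjusted p = 0.819), and Myocd -0.41 (SE 0.34, adjusted p = 0.477), with 1947–4860 in controls and 1605–3602 in Gen-treated mice. A second Myocd probe gave -0.54 (SE 0.22, adjusted p = 0.145 by limma).

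As a group, the 15 smooth muscle genes had a median log2 fold change of -0.23, a range of -0.52 to 0.13, and 0 calls in either direction. The median over all measured gene names was 0.03. Marker lists of nonmuscle cells had medians of -0.22 (oviduct epithelium), -0.20 (fat cells), -0.14 (fibroblasts) and 0.08 (pericytes). At an unadjusted p under 0.05, 7.07% of all measured gene names were lower and 9.96% higher. Of the 15 smooth muscle genes, 3 (Actg2, Mylk and Tpm2) were lower and 0 higher. These directions depend on scaling the arrays. Without scaling, the median over all measured gene names was 0.27 and that of the smooth muscle genes 0.01, with 6 of 15 below 0. Relative to all measured genes the smooth muscle median was -0.26, the same without scaling because scaling shifts all genes of an array alike. With quantile normalization it was -0.19, and with each array left out it lay between -0.36 and -0.19.

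The 19 measured striated isoforms had a median of -0.31 and a range of -0.97 to 0.53, with 12 below 0. Of them 3 (15.8%) passed, all lower, against 2.18% of all measured gene names called lower and 3.18% called higher. After the troponins and actins, Lmod3 had a change of -0.46 (adjusted p = 0.156). Myl4, the atrial essential light chain, had 3744, 4892, 4029 and 4797 in controls and 3266, 2831, 3754 and 3231 in Gen-treated mice, a change of -0.41 (adjusted p = 0.091), and its second probe passed the test (-0.54, adjusted p = 0.0325). Above 0 were Myl1, the fast skeletal light chain (0.53, adjusted p = 0.361), which set the upper end of the range and was well above background on only 1 of 4 control arrays, Mylk2, the skeletal light chain kinase (0.52, adjusted p = 0.127), Tcap, a cap protein of titin (0.32), Ttn itself (0.22, with 1 of 9 probes measured) and Myl3, the ventricular essential light chain (0.13). Mylpf (0.07) and Myl7, the atrial regulatory light chain (-0.08), were near 0. Relative to all measured genes the striated median was -0.34, against -0.38 with quantile normalization and -0.41 to -0.20 with each array left out. Without Gen replicate 3 the striated median was -0.15, or -0.20 relative to all measured genes.

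The 11 widely expressed isoforms had a median of -0.04. Pdlim1 alone passed (9.09%), against 2.18% of all measured gene names called lower and 3.18% called higher. Cnn3, acidic calponin, had 26998, 32026, 31700 and 29554 in controls and 22176, 26089, 23520 and 22675 in Gen-treated mice. The groups were separate, with a change of -0.35 (SE 0.11, adjusted p = 0.0757). Cnn2 had 23900, 37963, 39513 and 34828 against 22368, 30474, 28575 and 20696, a change of -0.41 (SE 0.21, adjusted p = 0.241). Myl6, the essential light chain of nonmuscle and smooth muscle myosin, had 422303, 484842, 479285 and 434032 against 401868, 422849, 311913 and 405533, a change of -0.25 (adjusted p = 0.272), and both of its probes gave -0.25. The adjacent gene Myl6b had 798–1106 in controls and 1074–1523 in Gen-treated mice, a change of 0.48 (adjusted p = 0.0751). Mylc2b, a nonmuscle regulatory light chain, had 108467, 108283, 102511 and 100171 against 106965, 103422, 95163 and 119110, a change of 0.01. Tpm3 had 46398, 61254, 45486 and 47564 against 46369, 49504, 47392 and 57791 (0.01), and Tpm4 had 64838, 56415, 54511 and 54312 against 58691, 62395, 46376 and 72692 (0.05). The muscle tropomyosins thus had estimates of -0.43 and -0.33 and the widely expressed ones 0.01 and 0.05, with SEs of 0.14–0.20, and none of the 4 passed.

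The 6 genes that match the name rule but lie outside the families had estimates from -0.29 to 2.36. Mylip, a ubiquitin ligase for the low-density lipoprotein receptor, had 10731, 9755, 11040 and 12082 in controls and 13565, 10878, 13517 and 20267 in Gen-treated mice, a change of 0.38 (adjusted p = 0.241). Cnnm1, with the estimate of 2.36 (adjusted p = 0.0672), was well above background on only 1 of 4 control arrays. Cnnm4 was separate between groups at its main probe (-0.29, adjusted p = 0.145), and its other probe was called lower (-1.13, adjusted p = 0.0236). Over all 53 measured members 6 (11.3%) were lower without overlap, namely Pdlim1, Tnnt1, Tnni2, Cnn3, Pdlim5 and Cnnm4, and 0 were higher, against 6.14% and 6.44% of all measured gene names.

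Whether isoforms of the same family changed unequally was tested on the difference of their log2 signals on each array, for 6 pairs. In none did the groups separate, and by exact 2-sided permutation tests the smallest p was 0.114 (the smallest this design allows is 0.0286), with all adjusted p values at or above 0.429. Acta2 minus Actg2 differed by 0.19, from 2.43 ± 0.10 in controls to 2.62 ± 0.18 in Gen-treated mice (SD, n = 4, exact p = 0.114), and Actc1 minus Acta2 differed by -0.19 (exact p = 0.143). Acta1 minus Actg2 differed by -0.15, Myl4 minus Myl6 by -0.17, Cnn2 minus Cnn1 by -0.18 and Myl7 minus Myl9 by 0.09. No called troponin was in a pair. With control replicate 1 left out, the groups separated in 2 of the 6 pairs.

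**Figure D5:**
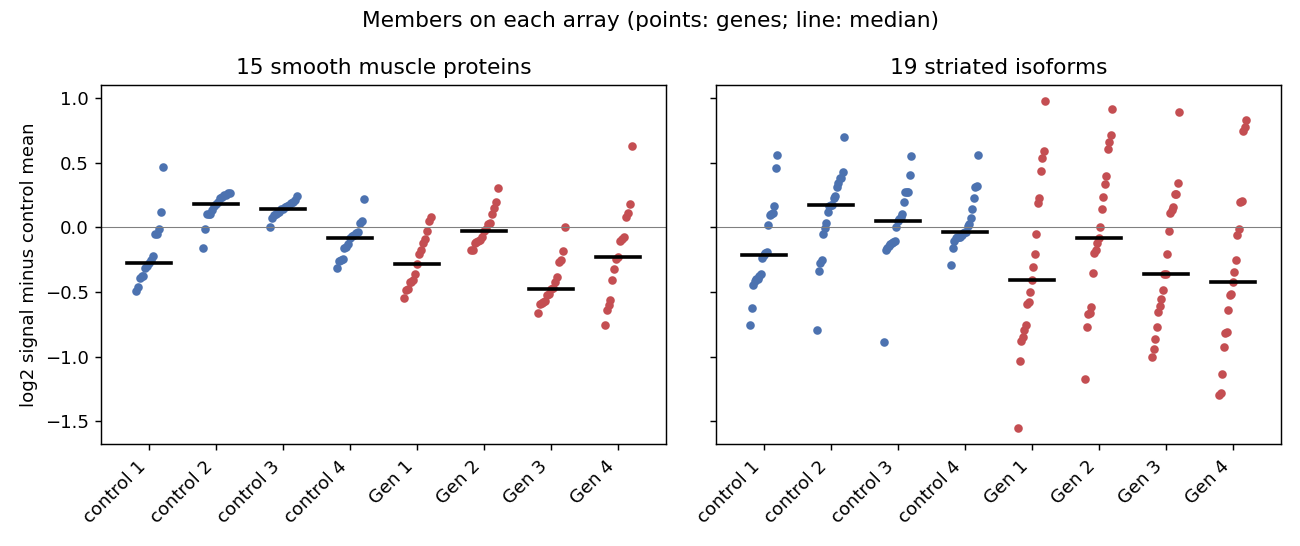
Log2 signal minus the control mean (y axis) of each of the 15 smooth muscle genes and 19 measured striated isoforms (points) on the 8 arrays (x axis), with the median of the list as a black line. For the smooth muscle genes the median of control replicate 1 (-0.28) is at the level of Gen replicate 1 (-0.28), and that of Gen replicate 2 (-0.02) is near the control mean.

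The smooth muscle genes varied together from mouse to mouse within each group. Control replicate 1 had the lowest control signal for 10 of the 15 (66.7%), against 36.8% of all measured gene names, and the same mouse was lowest for 12 of 19 striated and 8 of 11 widely expressed isoforms. In the Gen group, replicate 2 was highest for 10 of the 15 (66.7%, against 26.6%), and replicate 3 lowest for 8. The median deviation of the smooth muscle list from the control mean was -0.28, 0.18, 0.14 and -0.08 in controls and -0.28, -0.02, -0.48 and -0.23 in Gen-treated mice, and the medians of the groups overlapped. All measured genes had medians between -0.03 and 0.07. Fibroblast markers had a different order, with medians of 0.19 on control replicate 1 and 0.30 on Gen replicate 4. Fat cell markers (6 genes) had medians from -0.51 to 0.90 in controls and from -1.33 to 0.73 in Gen-treated mice. Oviduct epithelium markers (9 genes), like the smooth muscle list, were lowest on control replicate 1 (-0.17) and highest on control replicate 2 (0.14) among controls. Among Gen-treated mice the order differed. Gen replicate 2 was the lowest for the epithelial markers (-0.41) and the highest for the smooth muscle list (-0.02). Without control replicate 1, the smooth muscle median was -0.29 with 14 genes below 0, and without Gen replicate 3 it was -0.15 with 11 below 0. In neither case did any of the 15 pass.

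Genes around the filament were counted from lists. Of 34 genes of smooth muscle contraction with a probe, all measured, 1 fell (2.94%): Hspb1, a small heat shock protein that acts on actin filaments, with 56039, 74685, 56601 and 58880 in controls and 42047, 43936, 39071 and 46090 in Gen-treated mice (-0.52, adjusted p = 0.0304). None rose, and the median was -0.07. Myh11, the smooth muscle myosin heavy chain that pulls on these filaments, had a change of -0.30 (SE 0.18, adjusted p = 0.329), with 103524–172795 in controls and 108010–129686 in Gen-treated mice. Of 17 partners and regulators of Srf and myocardin, 14 were measured and 0 passed. Of all measured gene names, 3.18% were called higher and 2.18% lower. At an unadjusted p under 0.05, 1 of the 14 was higher and 1 lower, against 9.96% and 7.07% of all measured gene names. Of 50 further sarcomere genes, 39 were measured. Ldb3, a Z-disk protein with a PDZ and a LIM domain, fell from 230, 434, 395 and 264 to 217, 171, 134 and 186 (-0.87, adjusted p = 0.0457). Smpx, a small muscle protein well above background on 1 control array, had 63, 20, 66 and 22 in controls and 201, 639, 157 and 87 in Gen-treated mice and was called higher (adjusted p = 0.0385). The cardiac myosin heavy chains fell more than any measured member, with log2 fold changes of -2.60 for Myh7 and -2.55 for Myh6 (adjusted p = 0.0236 for both). With each of the 8 arrays left out in turn, Myh6 and Myh7 passed in 4 fits, Hspb1 and Smpx in 2 and Ldb3 in 1, with adjusted p values up to 0.0675, 0.0675, 0.0853, 0.0981 and 0.112. Without Gen replicate 1, 2 or 3 or without control replicate 1 none of the 5 passed.

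Markers of other muscle types were read beside the striated isoforms. Of 18 heart muscle markers, 10 were well above background on all 8 arrays, and Hand1, Ryr2 and Tbx5 were on none. Nkx2-5, Nppb, Sln and Tbx20 were well above background on some or all Gen arrays but on no control array. Over the whole array, too, more probes were well above background on Gen arrays (29527–31481) than on control arrays (25359–28934). The share of all genes detected on Gen arrays only was not counted. Nppa, atrial natriuretic peptide, had 162–309 in controls and 240–282 in Gen-treated mice. The summed signal of this list, which holds Actc1 and Tnnt2, was 92838–145060 in controls and 61671–93774 in Gen-treated mice. Its brightest genes in controls were Actc1, Tnnt2 and Myh7, and the list as a whole had a median log2 fold change of 0.04, with 7 measured genes above 0 and 7 below. Of these 14 heart markers, 3 were called lower (Myh6, Myh7 and Tnnt2) and 1 higher. Of all measured gene names, 2.18% were called lower and 3.18% higher. Gata4 was called higher (0.98, adjusted p = 0.0425) but was well above background on only 2 of 4 control arrays, and Mybpc3 was higher without overlap (1.41, adjusted p = 0.0839). Of 18 skeletal muscle markers, 9 were on all arrays, Myf5, Myog and Pax7 on none, and Myod1 and Myf6 on Gen arrays only. Their sums were 16755–27347 in controls and 13108–17808 in Gen-treated mice. The skeletal list had a median log2 fold change of -0.48, with 8 of 11 measured genes below 0 and 3 above. Of these 11, 2 were called lower, Tnni2 among them, and 3 were lower without overlap. The shares of all measured gene names were 2.18% and 6.14%. Sums for pericytes (133817–151349 and 130179–197777), fibroblasts (749979–973794 and 712429–1040464) and oviduct epithelium (1167038–1333045 and 984887–1353235) overlapped between groups as well. Of 9 pericyte markers 1 was called higher, against 3.18% of all measured gene names, and the median of that list was 0.08. Of the 10 epithelial markers 6 were below 0, with a median of -0.22, and Cldn3, a tight junction protein, was called lower (-0.67, adjusted p = 0.0287). Krt19, an epithelial keratin, was lower without overlap (-0.47, adjusted p = 0.0728). The part of these cell types in the lower striated isoforms was not tested.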

How the data were processed

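Oviduct RNA of 8 mice was hybridized to Agilent whole-genome arrays, 4 control and 4 Gen, grouped by the sample labels. For each array the authors deposited a Feature Extraction (version 9.5) table, whose processed signal is an intensity on a linear scale, corrected for background and detrended but not scaled between arrays. The deposited series table held the same intensity in all 45018 spots. The Rosetta Resolver step of the study was not applied. Here 1639 control spots and outlier spots were left out, log2 signals of a probe averaged and arrays scaled to the same 75th percentile. Groups were compared with lmFit and eBayes of limma 3.58.1 in R 4.3.3, with Benjamini-Hochberg adjustment over 41173 probes, and a call was an adjusted p under 0.05. A gene was represented by its probe with the highest mean log2 signal.

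The members, lists and tests were chosen with earlier results of these data known. The smooth, striated and other lists are not the study's. Per-array values were given for Acta2, Actg2 and Des, for measured members with a call, and for the brightest others up to 25 genes. They were also given for measured called genes of the smooth muscle contraction and sarcomere lists, but not for those of the marker lists. Other genes and the printed sequences were chosen after their values were seen, because no called member had a CArG box in its window. Symbols followed RefSeq accessions for 48 members and the array name for 8. Mylk3, Mylk4 and Myl12a had no probe. The steps were tested on simulated data, and plots drawn with matplotlib 3.10.9. The number of arrays limits the precision. Alternatives were no scaling, quantile normalization, normexp (offset 50), dim probes left out, dim signals raised to a floor, outlier spots kept, trend and robust eBayes, the methods' t-test, an unadjusted p under 0.01, a replicate block, the mean of all probes, and each array left out. Probe sequences are not reported here.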

Additional observations from a re-analysis of the deposited data

Results flagged for a closer look

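In 5 of 56 groups of 4 arrays examined over the named genes, 1 array stood apart from the other 3 by more than Dixon's 95% critical value for the gap over the range, where chance gives about 1 in 20. Gen replicate 3 was low for Myl6, at 311913 against 401868–422849 (ratio 0.833), and for Pdlim3, at 41263 against 65447–70143 (ratio 0.869). Control replicate 1 was low for Pdlim4, at 33416 against 41687–43332 (ratio 0.851), and for Srf, at 18675 against 22526–23227 (ratio 0.860). Control replicate 2 was high for Tpm3, at 61254 against 45486–47564 (ratio 0.850). None of these genes passed the test between groups.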

How the results depend on the processing

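The 5 members called lower, 4 of them striated isoforms, became 0 and 0 with quantile normalization, without scaling, with the floor, with the methods' t-test and with the replicate number as a block, and 2 and 1 with normexp and with the filter on dim probes. With each array left out the counts were 0–4 for members and 0–3 for striated isoforms; the cause was not tested. Members called higher went from 0 to 1 (Cnnm1) without scaling and with trend and robust, and were 0–1 with each array left out. In the smooth muscle list no setting gave a call. Isoform pairs without overlap were 0 of 6 and 0–2 with each array left out. With the replicate block, 2 pairs had the same sign in all 4 same-numbered differences (exact p = 0.125, the smallest that test allows). Over all gene names the 664 calls higher and 4173 lower became 76 and 51 with quantile normalization, 363 and 138 without scaling, 86 and 102 with normexp, 133 and 106 with the dim filter, 6 and 7 with the floor and 0 with the methods' t-test. Without scaling, the median of all measured genes moved by 0.24, and Des (0.051), Myl9 (0.076), Tagln (0.020), Cnn1 (0.013), Lmod1 (0.0045), Pdlim3 (0.20) and Srf (0.18) turned above 0. Pdlim3 was also above 0 with quantile normalization (0.032) and with the mean of probes (0.071), and Mylc2b below 0 with normexp (-0.0055). With each array left out, Mylc2b ranged from -0.043 to 0.065, Pdlim3 from -0.13 to 0.14, Tpm4 from -0.051 to 0.17, Tpm3 from -0.061 to 0.11 and Srf from -0.16 to 0.0037. Same-numbered arrays did not deviate together (correlations of -0.08, 0.11, -0.02 and -0.18) and 0 of 8 arrays correlated best with their own number, so the number is not taken as a pairing, and the block left 1 call over all gene names. Dim genes such as Lmod2 limit what can be called.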
